A study of Rattus norvegicus with 20 samples.

Results

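Oesophagi of rats given high-dose STW5 were set against oesophagi of rats given omeprazole, both with reflux oesophagitis, on 8 of the 20 arrays of the series. The 4 and 4 arrays were chosen by their sample titles alone. STW5 is a fixed mixture of plant extracts taken for functional dyspepsia and irritable bowel. Omeprazole inactivates the gastric proton pump and so lowers stomach acid. The animals were Wistar rats whose oesophagitis was induced by surgery. The high-dose STW5 group received 2 ml/kg of STW5 and the omeprazole group 30 mg/kg of omeprazole, each for 7 days before the operation and 10 days after it, when the oesophagus was taken. Operated rats with no drug (untreated) and sham-operated rats, 4 arrays each, are given for context. A low-dose STW5 group of operated rats (4 arrays), given 0.5 ml/kg on the same schedule, entered the fit of all groups. RNA of whole tissue was labelled with Cy3 and hybridised to one-colour Agilent arrays. The sample titles number 4 replicates per group and do not name the animals. In such whole tissue, fewer cells of a type and less RNA per cell cannot be told apart.

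The rat oesophagus is a tube of striated muscle lined by a squamous epithelium that cornifies at its surface. Reflux injures this lining, and the injured wall draws in leukocytes that follow chemokines, small proteins bound by receptors on the moving cells. Keratinocytes then divide and close the defect, while fibroblasts lay down and cut matrix. A proton pump inhibitor lowers the acid that reaches the wall, and omeprazole is also known to switch on the aryl hydrocarbon receptor, a sensor of foreign compounds, in liver cells.

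The identity of the STW5 arrays is not settled by the deposited data. In the deposited value table the columns titled 2 ml/kg hold the scanner values of the 4 arrays titled 0.5 ml/kg, and those titled 0.5 ml/kg hold the values of the arrays titled 2 ml/kg. The numbering of the 2 STW5 groups in the titles is also the reverse of that in the study's design text. The arrays titled 2 ml/kg in the scanner files are called high-dose STW5 here. By the value table's own titles, 787 genes were higher and 234 lower, and the signs of most gene groups described here turned: the median log2 difference was -0.52 for the macrophage list, -0.88 for the complement list and 0.74 for the squamous list. Only 3 of the 30 genes called here kept their call under those titles, and 8 changed sign. That comparison sets the other 4 STW5 arrays, which lay on another slide, against the omeprazole arrays. The results below are therefore those of 4 arrays against 4 arrays on 1 slide, whose STW5 dose is uncertain.

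High-dose STW5 and omeprazole arrays shared a slide, but every STW5 array lay in one column of that slide and every omeprazole array in the other, so column and drug cannot be told apart. The share of features well above background was 68.3% ± 2.01 on high-dose STW5 arrays and 67.9% ± 0.980 on omeprazole arrays (SD, n = 4 each, exact two-sided permutation p = 0.771, smallest p possible 0.0286). Adjusted over 4 such array measures, a single measure could not pass even with full separation of the groups, so the adjusted p-values decide nothing. The median signal of negative controls was 3.43 ± 0.226 on high-dose STW5 arrays and 3.93 ± 0.222 on omeprazole arrays (exact permutation p = 0.0571, adjusted p = 0.229). Across genes, arrays correlated with r between 0.984 and 0.995 within high-dose STW5, between 0.970 and 0.991 within omeprazole, and between 0.953 and 0.983 across the 2 groups. Omeprazole array 2 stood closer to sham array 2 than to any other array. The spread of their differences was 2.09 times that between spots of one probe, against at least 2.62 times for pairs within either group, so counts without omeprazole array 2, and from a fit without sham array 2, are also given. Krt13 and Krt4, keratins of the oesophageal lining, were among the bright genes on all 8 arrays, at 6.54 to 7.94 and 6.67 to 7.80 above the 75th percentile on the log2 scale.

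A level is the log2 signal of a gene minus the 75th percentile of its array, and a difference is the mean level with high-dose STW5 minus that with omeprazole. In a limma fit of all 5 groups of the series, 26 of 13615 genes (0.191%) were higher with high-dose STW5 and 4 (0.0294%) were lower at a Benjamini-Hochberg adjusted p under 0.05. The other groups varied more between arrays than these 2 did: the median SD of a gene was 0.233 on high-dose STW5 arrays and 0.260 on omeprazole arrays, against 0.369 on untreated and 0.343 on sham arrays. In a fit of the 8 arrays alone, 643 genes (4.72%) were higher and 540 (3.97%) lower, and these held all 30 genes of the first fit. Below, called means passing in the 5-group fit, and the 8-array fit is named wherever a call comes from it alone. Without regard to any test, all 4 high-dose STW5 arrays lay above all 4 omeprazole arrays for 1085 genes (7.97%) and below them for 1458 genes (10.7%). The median difference over all genes was -0.07. Counts of list members below are to be read against these shares of all genes. At an unadjusted p under 0.05 the 5-group limma fit had 972 genes higher and 1467 lower. No such count over all genes was taken for the 8-array fit, so list counts at that threshold in it lack a share to compare.

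Calls of the 5-group fit depended on single arrays. Without high-dose STW5 array 1, 2, 3 or 4 the fit called 19, 12, 5 and 5 genes higher, and 1, 0, 0 and 0 lower. Without omeprazole array 1, 2, 3 or 4 it called 22, 9, 9 and 5 higher, and 0, 0, 1 and 1 lower. Of the 30 genes, 5 (Alox12e, Ccr3, Padi2, Bdkrb1 and Tfec) kept their call in all 8 of these fits and 7 (Clec9a, Prdm1, Sgo2, Lilra5, LOC689826, LOC690045 and Plpp1) in none. Alox12e, Ccr3 and Tfec were not well above background on omeprazole arrays, and Bdkrb1 mostly not, so their small spread there is that of dim signals. The fit without sham array 2 called 24 higher and 3 lower.

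The smallest adjusted p belonged to Alox12e, which encodes an epidermal-type arachidonate lipoxygenase of rodents. Its level was -1.55, -2.46, -2.03 and -2.05 on high-dose STW5 arrays, against -7.81, -7.82, -7.37 and -7.72 on omeprazole arrays, none of which was well above background. The gene was at least 37.7-fold higher with high-dose STW5 (adjusted p = 7.79e-05), and the 2 groups lay far apart. Bounds of this kind set the mean of the bright group against the dimmest signals well above background on the arrays of the dim group. Some brighter signals were still not well above background, such as Prokr2 at -6.24 on omeprazole array 2. With a higher floor the bounds would be smaller, so they hold for this floor only. Its mean in untreated rats was -4.15 ± 1.59 (SD, n = 4), below all 4 high-dose STW5 arrays and above all 4 omeprazole arrays.

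Ccl11 encodes eotaxin, a chemokine that attracts eosinophils, and Ccr3 encodes its receptor. Ccl11 stood at 2.26, 2.21, 2.53 and 2.95 on high-dose STW5 arrays, against -3.74, -1.47, -1.63 and -2.39 on omeprazole arrays. The difference was 4.79 ± 0.75 (SE, adjusted p = 0.0145), a 27.7-fold higher mean with high-dose STW5. Leaving out 1 array gave adjusted p-values of 0.0259 to 0.0849 for Ccl11, and the call was lost without high-dose STW5 array 3 or 4 or omeprazole array 4. Ccr3 levels were -2.98, -4.63, -4.05 and -3.38 with high-dose STW5, against -7.43, -7.06, -7.33 and -7.42 with omeprazole, where no array was well above background. Ccr3 was at least 9.55-fold higher with high-dose STW5 (adjusted p = 0.00407).

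Of the 14 measured genes of mast cells and eosinophils, Ccr3 was called and 2 more were higher in the 8-array fit. These were Tpsab1, a mast cell tryptase, by 1.65 ± 0.38 (8-array adjusted p = 0.0339), and Siglec5, a sialic acid receptor of myeloid cells, by 1.28 ± 0.31 (8-array adjusted p = 0.0415), where 1 of 4 omeprazole arrays was well above background. The other 11 overlapped between the groups, among them Prg2, the major basic protein of eosinophil granules (0.33 ± 0.29), and the mast cell carboxypeptidase Cpa3 (0.49 ± 0.77). The median difference of the list was 0.68.

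**Figure D1:**
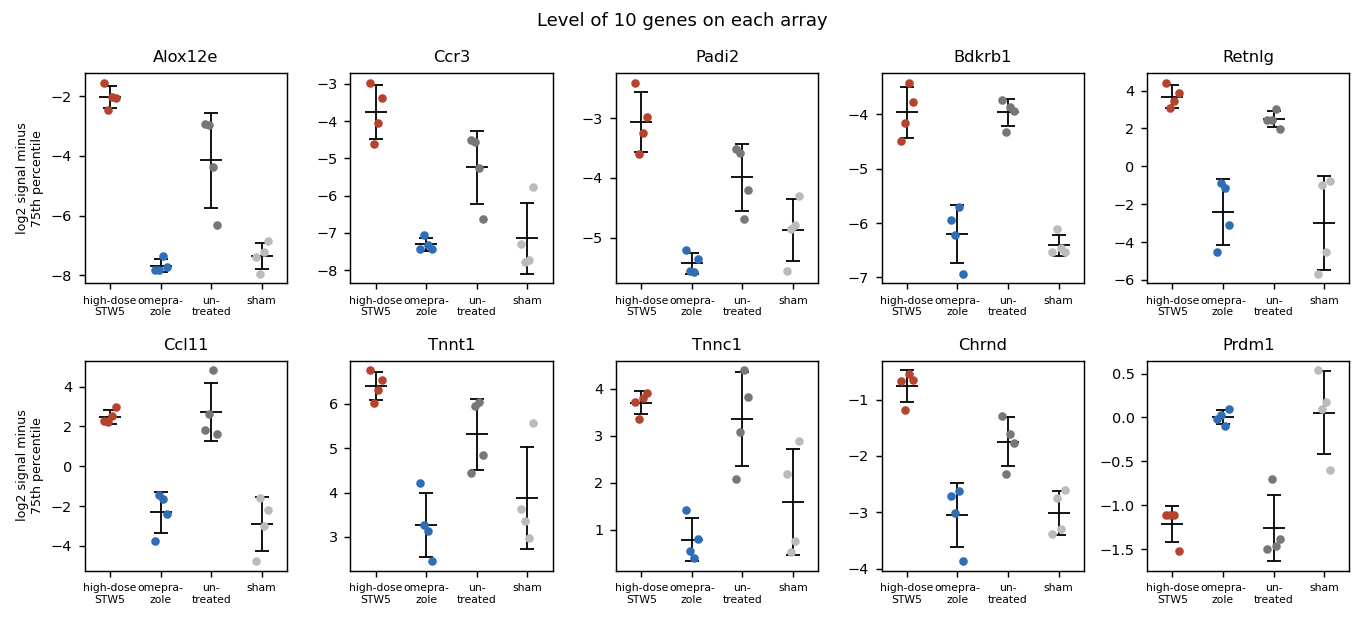
Level of 10 called genes (log2 signal minus the 75th percentile of the array) on each array of the high-dose STW5, omeprazole, untreated and sham groups, with the mean and SD of 4 arrays. In each panel the high-dose STW5 and omeprazole points do not overlap: 9 genes lie higher with high-dose STW5, and Prdm1 lies lower.

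Padi2, an enzyme that turns arginine of proteins into citrulline, was -2.41, -3.59, -3.25 and -2.97 on high-dose STW5 arrays, against -5.21, -5.56, -5.58 and -5.36 on omeprazole arrays. Its difference was 2.37 ± 0.31 (adjusted p = 0.00307), and the groups did not overlap. Bdkrb1 encodes the bradykinin B1 receptor, which appears in injured tissue and takes part in pain signalling. It stood at -4.50, -4.17, -3.42 and -3.77 with high-dose STW5, against -5.95, -6.21, -5.71 and -6.93 with omeprazole, where 1 of 4 arrays was well above background. The difference was 2.24 ± 0.27 (adjusted p = 0.00152), and untreated rats averaged -3.96 ± 0.25.

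Among 18 measured receptors and peptides of pain sensing, Bdkrb1 was called and 3 more were higher in the 8-array fit. The mu opioid receptor gene Oprm1 was higher by 1.63 ± 0.36 (8-array adjusted p = 0.0297), with 2 of 4 omeprazole arrays well above background. So was Calcrl, the receptor of calcitonin gene-related peptide, by 0.87 ± 0.19 (8-array adjusted p = 0.0278). The serotonin receptor gene Htr2a was at least 2.46-fold higher (8-array adjusted p = 0.0399), with 2 of 4 high-dose STW5 arrays and 0 of 4 omeprazole arrays well above background. The acid and heat channel Trpv1 differed by -0.37 ± 0.48 and the bradykinin B2 receptor Bdkrb2 by -0.20 ± 0.30, and both overlapped. The list's median difference was 0.16.

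Several genes of myeloid cells were higher with high-dose STW5. Retnlg encodes a resistin-like secreted protein of rodent neutrophils and their precursors. Its level was 4.41, 3.06, 3.42 and 3.85 on high-dose STW5 arrays, against -4.52, -0.87, -1.16 and -3.11 on omeprazole arrays. At 6.10 ± 1.02 (adjusted p = 0.0192) this was the largest difference of the 30 called genes, 68.6-fold in the means, and 42.2-fold without omeprazole array 1. With 1 array left out its adjusted p was 0.0266 to 0.0912, and the call was lost without high-dose STW5 array 1, 3 or 4 or omeprazole array 1 or 4.

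Tfec, a transcription factor of macrophages, was higher by at least 2.53-fold (adjusted p = 0.00778). So was Tlr7, an endosomal receptor of single-stranded RNA, by at least 2.77-fold (adjusted p = 0.0347). Aoah, an enzyme that removes fatty acids from bacterial lipopolysaccharide, exceeded its omeprazole level by at least 4.13-fold (adjusted p = 0.0312). None of these 3 was well above background on any omeprazole array, against 3 of 4 high-dose STW5 arrays each. Clec9a, a dendritic cell receptor for dead cells, differed by 2.24 ± 0.44 (adjusted p = 0.0442), with 2 of 4 omeprazole arrays well above background. Lilra5, an activating leukocyte receptor, differed by 1.91 ± 0.34 (adjusted p = 0.0257). With 1 array left out, Aoah had adjusted p-values of 0.0169 to 0.147 and Tlr7 of 0.0188 to 0.149, each keeping its call in 1 of 8 fits. Clec9a had 0.0549 to 0.225 and Lilra5 0.0605 to 0.147.

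Of 19 measured macrophage and monocyte genes, 15 were higher and 0 lower in the 8-array fit, and the same count, 15, lay without overlap. None of the 19 passed in the 5-group limma fit, where the smallest adjusted p was 0.0965 (Mrc1) and 15 had an unadjusted p under 0.05. All 19 differences were positive, with a median of 1.26. As the mean of its centred members, the list's level lay between 0.23 and 1.13 on high-dose STW5 arrays and between -0.80 and -0.17 on omeprazole arrays. Its part in the other differences was not tested. The mannose receptor gene Mrc1 stood at -4.04, -3.21, -2.93 and -3.34 on high-dose STW5 arrays, against -5.06, -4.59, -5.01 and -4.92 on omeprazole arrays. C1qb, a chain of the first complement component made by macrophages, stood at 5.18, 5.19, 5.41 and 5.71, against 3.73, 4.22, 4.08 and 3.95 on omeprazole arrays, a difference of 1.38 ± 0.16 (8-array adjusted p = 0.0057). The pan-leukocyte gene Laptm5 differed by 1.26 ± 0.20 (8-array adjusted p = 0.0125) and the haemoglobin scavenger receptor Cd163 by 1.70 (8-array adjusted p = 0.016). Cd14, the lipopolysaccharide co-receptor, differed by 0.74 (95% interval -0.36 to 1.84) and overlapped.

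Both drug groups were also set against untreated rats, which lay on another slide. Mrc1 differed from untreated rats by -0.91 with high-dose STW5 (adjusted p = 0.11) and by -2.43 with omeprazole (adjusted p = 0.00023). Laptm5 differed by -1.20 with high-dose STW5 (adjusted p = 0.077) and by -2.45 with omeprazole (adjusted p = 0.0007). Untreated rats averaged -2.47 ± 0.51 for Mrc1 and 5.16 ± 0.60 for Laptm5 (SD, n = 4). These 2 comparisons share the untreated arrays, and slide and group cannot be told apart in them.

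Complement and acute phase genes formed the list with the largest share of members without overlap. Of 15 measured members, 13 were higher in the 8-array fit and in the count without overlap, and 0 were lower, with a median difference of 1.37. Here too 0 members passed in the 5-group limma fit, and 11 had an unadjusted p under 0.05 in it. The central component C3 differed by 3.13 (8-array adjusted p = 0.0292), the alternative pathway protease Cfb by 2.61 (8-array adjusted p = 0.00543) and the haemoglobin-binding acute phase protein Hp by 2.34 (8-array adjusted p = 0.00543). The protease inhibitor A2m stood at 0.20, 1.24, 1.53 and 1.42 on high-dose STW5 arrays, against -1.82, -0.91, -0.94 and -1.51 on omeprazole arrays, a gap of 2.40 ± 0.33 (8-array adjusted p = 0.00762). The regulator Serping1, which inhibits the first component, was higher by 1.59 ± 0.15 (8-array adjusted p = 0.00271).

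Genes of antigen presentation by MHC class II also lay apart. Of 16 measured members, 8 were higher in the 8-array fit, 10 lay higher without overlap, and 0 were lower by either count, with a median of 0.80. RT1-Da, the class II alpha chain of the rat, stood at 2.56, 2.98, 3.14 and 3.65 with high-dose STW5, against 1.11, 1.52, 1.38 and 1.08 with omeprazole. Its difference was 1.81 ± 0.23 (8-array adjusted p = 0.00613). Cd74, the invariant chain that guides class II molecules, differed by 1.58 ± 0.23 (8-array adjusted p = 0.00926), and RT1-DMb, part of the chaperone that loads peptides onto them, by 1.15 (8-array adjusted p = 0.0123). Of 23 interferon response genes, 3 were higher in the 8-array fit and 7 without overlap. Gbp2, an interferon-induced GTPase, differed by 1.32 ± 0.24 (8-array adjusted p = 0.0183) and the antiviral GTPase Mx1 by 0.97 ± 0.16 (8-array adjusted p = 0.0148). For Irf1, a transcription factor of this response, the brighter probe gave 0.93 and the other probe -0.03, so the 2 probes disagreed.

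Of 15 measured T and NK cell genes, 0 passed in either limma fit and 3, Nkg7 and Ccl5 among them, lay higher without overlap. At an unadjusted p under 0.05 the count was 0 in the 5-group fit and 5, all higher, in the 8-array fit, where no count over all genes was taken. Of 17 endothelial genes, 2 were higher in the 8-array fit. Vcam1, an adhesion molecule for leukocytes on inflamed vessels, was one of them, with a difference of 1.04 ± 0.13 (8-array adjusted p = 0.0057).

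**Figure D2:**
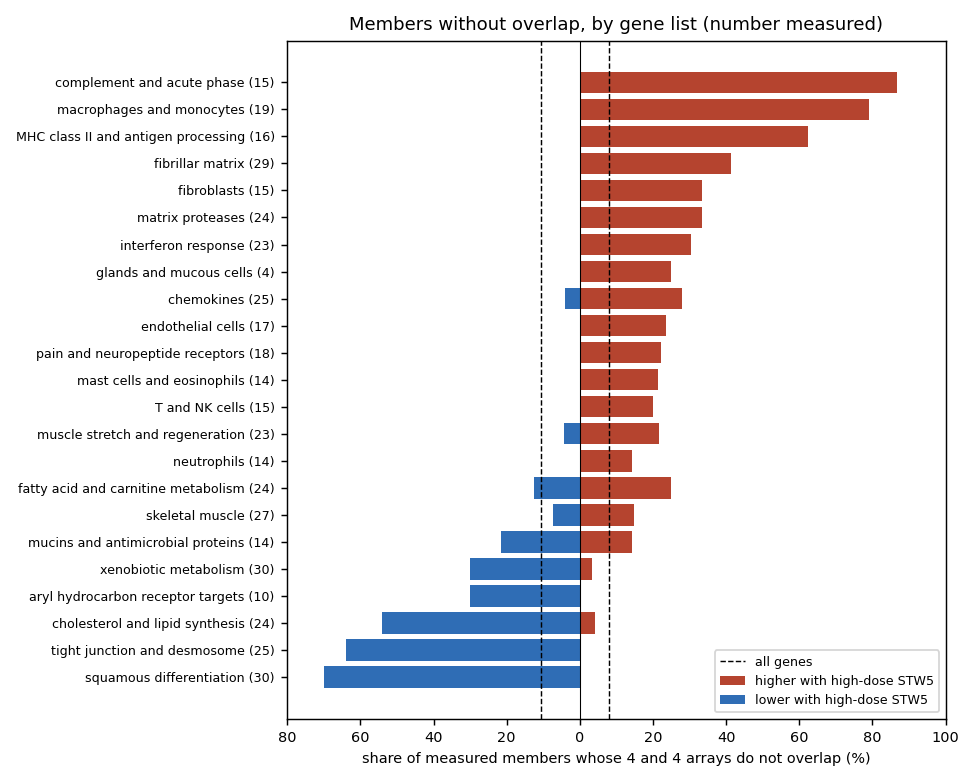
Share of the measured members of each described gene list for which the 4 high-dose STW5 arrays lie wholly above (red, right) or wholly below (blue, left) the 4 omeprazole arrays, in percent, with the number measured in brackets. Dashed lines mark the same shares over all 13615 genes, 7.97% above and 10.7% below. The complement list reaches furthest to the right and the squamous list furthest to the left.

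Il1b, a cytokine of acute inflammation, and S100a9, a neutrophil product, had wide intervals that included 0. Il1b stood at -0.87, 1.83, 1.73 and 3.26 on high-dose STW5 arrays, against -3.60, 1.36, 1.36 and -1.67 on omeprazole arrays. Its difference of 2.13 had a 95% interval of -1.30 to 5.55. S100a9, a subunit of calprotectin, stood at 1.59, 3.08, 3.15 and 4.35 with high-dose STW5, against -2.18, 4.51, 4.63 and 0.67 with omeprazole. On omeprazole arrays 2 and 3 S100a9 was higher than on any high-dose STW5 array, and on the other 2 it was lower than on any. Array 1 was the lowest of its group in both drug groups for Il1b and S100a9.

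The 95% interval also included 0 for the neutrophil chemokines Cxcl1 (2.61, 95% interval -0.43 to 5.65) and Cxcl2 (2.57, -2.11 to 7.26) and for the inducible cyclooxygenase gene Ptgs2 (0.28, -2.00 to 2.57). Tnf differed by 0.73 (-0.74 to 2.21) and Ccl2, which attracts monocytes, by 1.02 (-0.63 to 2.66). Il6 was well above background on 2 of 4 high-dose STW5 arrays and 0 of 4 omeprazole arrays. Of 14 measured neutrophil genes, Retnlg was called, and Lcn2 was also higher in the 8-array fit. Lcn2 encodes lipocalin 2, which withholds iron from bacteria. It stood at 0.63, 3.48, 4.10 and 4.52 with high-dose STW5, against -2.07, 0.09, 0.03 and -1.43 with omeprazole, a difference of 4.03 ± 0.86 (8-array adjusted p = 0.0271).

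Of 25 measured chemokines, Ccl11 was called, and in the 8-array fit 5 were higher and 1 lower. Cxcl12, which retains leukocytes and precursors in tissue, stood at 2.30, 1.84, 2.13 and 2.17 with high-dose STW5, against 0.83, 0.84, 0.72 and 0.55 with omeprazole (difference 1.37 ± 0.14, 8-array adjusted p = 0.00345). The monocyte chemokine Ccl7 was higher by 2.56 (8-array adjusted p = 0.0197) and Ccl4 at least 2.88-fold (8-array adjusted p = 0.0278). The membrane-bound chemokine Cx3cl1 differed by -0.59 (8-array adjusted p = 0.0311). Of 31 cytokines and their receptors, 2 were higher and 1 lower in the 8-array fit, near the shares over all genes (4.72% and 3.97%).

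**Figure D3:**
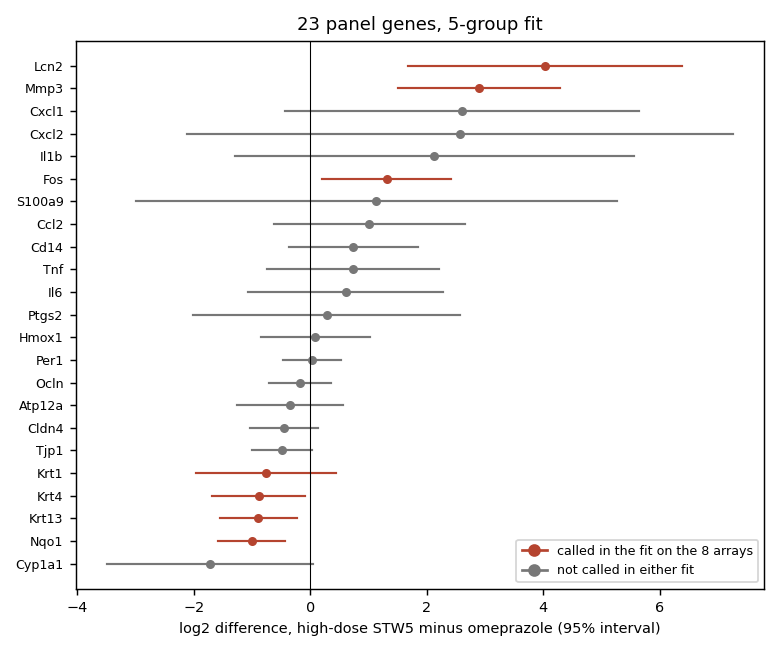
Difference of 23 panel genes, given whatever their values (high-dose STW5 minus omeprazole, log2, with the 95% interval of the 5-group fit). Red genes passed in the fit of the 8 arrays. The intervals of Il1b, Cxcl1, Cxcl2, S100a9 and Ptgs2 span 0 and are among the widest.

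Several matrix proteases were higher with high-dose STW5 in the 8-array fit. Of 24 measured proteases and inhibitors, 8 were higher and 0 lower in the 8-array fit, with a median of 0.60. Mmp3, stromelysin 1, stood at -4.29, -3.98, -3.51 and -3.64 on high-dose STW5 arrays, against -7.60, -6.39, -5.10 and -7.89 on omeprazole arrays. Its difference was 2.89 ± 0.55 (8-array adjusted p = 0.0204). Mmp10, stromelysin 2, stood at -2.99, -3.83, -3.82 and -3.42, against -7.66, -5.17, -5.08 and -7.40 with omeprazole, a difference of 2.82 ± 0.61 (8-array adjusted p = 0.028). Only 1 omeprazole array for Mmp3 and 2 for Mmp10 were well above background.

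The promoters of these neighbouring genes, which moved together, are shown from 250 bases before to 50 after the RefSeq start in GRCr8. Capitals mark TGANTCA, the letters of an AP-1 site, and TATAAA, searched on both strands.
Mmp3, chr8:12925031-12925330, + strand: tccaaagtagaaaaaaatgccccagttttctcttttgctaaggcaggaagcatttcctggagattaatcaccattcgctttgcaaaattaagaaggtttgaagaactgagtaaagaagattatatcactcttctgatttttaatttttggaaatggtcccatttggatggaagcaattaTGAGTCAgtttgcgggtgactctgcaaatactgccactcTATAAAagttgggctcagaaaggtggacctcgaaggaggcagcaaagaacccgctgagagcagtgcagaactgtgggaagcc
Mmp10, chr8:12974457-12974756, + strand: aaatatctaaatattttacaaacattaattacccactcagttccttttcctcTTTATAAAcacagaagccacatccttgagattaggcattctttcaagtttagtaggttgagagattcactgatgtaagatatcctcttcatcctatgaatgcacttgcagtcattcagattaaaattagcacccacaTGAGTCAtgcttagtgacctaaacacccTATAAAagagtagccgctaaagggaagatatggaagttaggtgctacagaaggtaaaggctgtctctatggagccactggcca
TGANTCA occurred once in each, starting 71 bases before the start of Mmp3 and 61 before that of Mmp10, and 7.33% of 33469 RefSeq promoters of this length held it. TATAAA or its reverse complement occurred 32 bases before the start of Mmp3 and 33 before that of Mmp10, with 2 overlapping matches further out in Mmp10 (198 and 196 bases before), and 14.2% of the promoters held it. Fos, a subunit of AP-1, stood at -1.95, -2.03, -1.81 and -1.48 with high-dose STW5, against -3.94, -2.88, -2.62 and -3.09 with omeprazole (1.31 ± 0.27, 8-array adjusted p = 0.026). It was the 1 of 19 measured immediate early genes that passed in the 8-array fit, and 2 lay higher without overlap. Over all genes 4.72% were higher in that fit and 7.97% lay higher without overlap. A match of letters is a description and not a site in use.

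Among the other proteases, the gelatinase Mmp2 stood at 4.83, 4.85, 5.27 and 5.16 on high-dose STW5 arrays, against 3.81, 3.70, 3.69 and 3.62 on omeprazole arrays (1.32 ± 0.14, 8-array adjusted p = 0.00345). Adamts1, which cuts proteoglycans, differed by 1.40 ± 0.14 (8-array adjusted p = 0.00345). Of 15 fibroblast genes 5 were higher and 0 lower in the 8-array fit, with a median of 0.75. They included Fbln1, a glycoprotein of elastic fibres and basement membranes, by 1.66 ± 0.14 (8-array adjusted p = 0.00255), and the growth factor receptor Pdgfra by 1.09 ± 0.17 (8-array adjusted p = 0.0108). Of 29 fibrillar matrix genes 7 were higher in the 8-array fit and 12 without overlap. Plod2, which hydroxylates collagen lysines, differed by 1.13 ± 0.14 (8-array adjusted p = 0.00608) and Col6a2, a chain of collagen VI, by 0.70 ± 0.12 (8-array adjusted p = 0.0168). Vegfd, a growth factor of lymphatic vessels, was called, with a difference of 1.99 ± 0.34 (adjusted p = 0.0197) and 1 of 4 omeprazole arrays well above background. Its adjusted p was 0.00898 to 0.109 with 1 array left out, and it kept its call in 2 of 8 such fits.

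A set of 4 slow-fibre genes of striated muscle, chosen after the values were seen, was higher with high-dose STW5. Of these, 2 were called and 4 passed in the 8-array fit. Tnnt1, slow troponin T, stood at 6.76, 6.01, 6.30 and 6.54 on high-dose STW5 arrays, against 4.22, 3.27, 3.13 and 2.46 on omeprazole arrays. The difference was 3.13 ± 0.52 (adjusted p = 0.0192), and a further probe gave 3.07. Tnnc1, troponin C of slow and cardiac muscle, stood at 3.72, 3.36, 3.81 and 3.92, against 1.42, 0.54, 0.39 and 0.81 with omeprazole (2.91 ± 0.51, adjusted p = 0.0214). These 2 genes also kept their calls by the value table's own titles, which set the other 4 STW5 arrays, on another slide, against omeprazole. With 1 array left out the adjusted p was 0.0181 to 0.0912 for Tnnt1 and 0.0359 to 0.11 for Tnnc1. Tnnt1 kept its call without high-dose STW5 array 2 or omeprazole array 1, and Tnnc1 without omeprazole array 1.

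Tnni1, slow troponin I, differed by 1.27 ± 0.25 (8-array adjusted p = 0.0229) and Myh7, the slow myosin heavy chain, by 2.77 ± 0.50 (8-array adjusted p = 0.0174). Myh7 stood at 1.03, -0.55, 0.42 and -0.44 with high-dose STW5, against -1.30, -2.89, -3.32 and -3.10 with omeprazole. Of 12 fast-fibre genes 0 passed in either limma fit, 3 were lower at an unadjusted p under 0.05 in the 5-group fit, and 2 lay lower without overlap: Myh1, a fast myosin heavy chain (-1.19 ± 0.49), and Actn3, the fast-fibre actinin (-1.04 ± 0.37). Fast troponins Tnnt3 (-0.10 ± 0.31) and Tnni2 (0.04 ± 0.31) overlapped. The median difference was 2.84 over the 4 slow-fibre genes, -0.14 over the fast-fibre genes and -0.10 over the whole muscle list of 27, of which 15 were below 0. The split into slow and fast fibre genes was made after the values were seen. Mybpc1, a slow-type gene of the muscle list, was not counted among the slow-fibre genes. The 11 measured muscle genes outside both classes differed by -0.74 to 0.67, and 0 of them lay without overlap. Summed over the list, the muscle level lay between -0.32 and 0.38 on high-dose STW5 arrays and between -0.49 and 0.57 on omeprazole arrays, as the mean of its centred members. Of 13 smooth muscle genes 0 passed in either limma fit or lay without overlap, and 0 had an unadjusted p under 0.05 in the 5-group fit, against 1 in the 8-array fit.

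**Figure D4:**
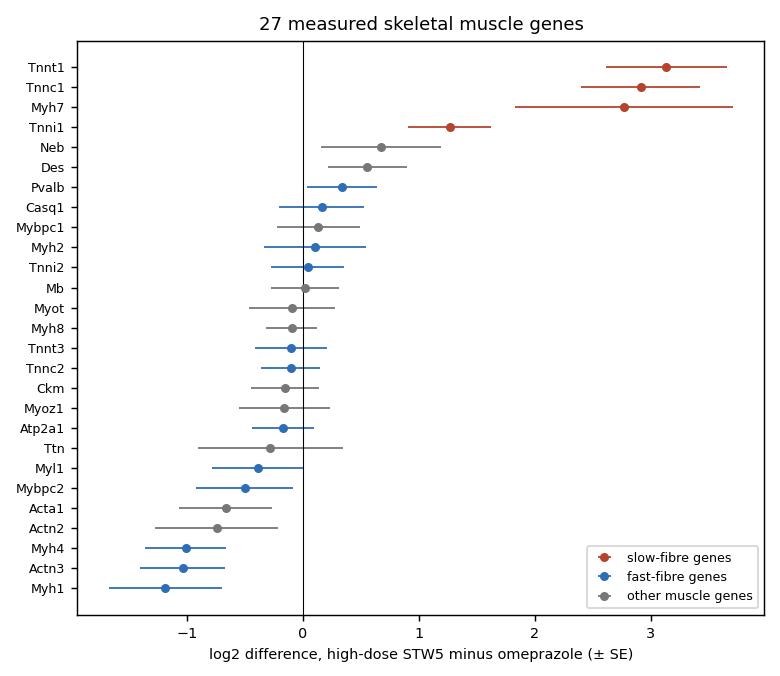
Difference (high-dose STW5 minus omeprazole, log2, with the SE of the 5-group fit) of the 27 measured skeletal muscle genes. The 4 slow-fibre genes (red) lie between 1.27 and 3.13, and the 12 fast-fibre genes (blue) lie between -1.19 and 0.34.

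Acetylcholine receptor genes of muscle were higher as well. The acetylcholine receptor opens the muscle membrane to ions at the nerve contact, and its gamma subunit belongs to the fetal form that muscle makes again when denervated or regenerating. Chrnd, the delta subunit, stood at -0.67, -1.18, -0.54 and -0.65 on high-dose STW5 arrays, against -2.71, -3.01, -2.63 and -3.86 on omeprazole arrays (2.29 ± 0.37, adjusted p = 0.0171). With 1 array left out its adjusted p was 0.0253 to 0.0873, and the call was lost without high-dose STW5 array 3 or 4 or omeprazole array 2 or 4. Chrng, the gamma subunit, stood at 0.38, -0.29, 0.42 and 0.50, against -2.27, -1.92, -1.84 and -4.48 with omeprazole (2.88 ± 0.55, 8-array adjusted p = 0.02). The alpha subunit Chrna1 differed by 2.49 (8-array adjusted p = 0.009) and Myog, the myogenic factor of differentiating muscle cells, by 0.91 ± 0.19 (8-array adjusted p = 0.0263).

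The promoters of the neighbouring delta and gamma genes are shown over the same window and build. Capitals mark CAGCTG, one form of the E-box that myogenic factors bind. Other forms of the E-box were not searched, so a window without capitals may hold them.
Chrng, chr9:95325734-95326033, + strand: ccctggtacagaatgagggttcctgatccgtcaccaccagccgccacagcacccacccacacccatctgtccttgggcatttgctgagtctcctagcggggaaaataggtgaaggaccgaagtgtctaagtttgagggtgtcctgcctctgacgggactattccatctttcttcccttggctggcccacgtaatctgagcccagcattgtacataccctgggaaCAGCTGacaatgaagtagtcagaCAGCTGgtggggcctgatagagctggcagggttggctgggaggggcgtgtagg
Chrnd, chr9:95310066-95310365, + strand: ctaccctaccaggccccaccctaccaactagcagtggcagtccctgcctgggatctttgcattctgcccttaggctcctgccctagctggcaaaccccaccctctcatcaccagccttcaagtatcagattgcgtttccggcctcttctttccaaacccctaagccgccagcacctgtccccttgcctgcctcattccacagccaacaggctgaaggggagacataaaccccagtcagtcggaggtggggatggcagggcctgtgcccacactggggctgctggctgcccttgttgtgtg
CAGCTG, which reads the same on both strands, occurred 26 and 3 bases before the start of Chrng and 0 times in the Chrnd window, and 15.1% of the promoters held it. In the whole list of 23 genes of muscle stretch and regeneration, 4 were higher and 1 lower in the 8-array fit. The lower one was Mss51, a mitochondrial regulator of skeletal muscle. It stood at -1.06, -0.93, -1.33 and -2.09 with high-dose STW5, against -0.24, -0.14, -0.25 and 0.31 with omeprazole (-1.27 ± 0.26, 8-array adjusted p = 0.0244). Untreated rats averaged -3.21 ± 1.04. Myod1 (0.02 ± 0.36) and the muscle-wasting ubiquitin ligase Trim63 (-0.11 ± 0.77) overlapped.

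Many genes of the squamous lining were lower with high-dose STW5 in the 8-array fit. Of 30 measured genes of squamous differentiation, 19 were lower and 0 higher in the 8-array fit, 21 lay lower without overlap, and the median difference was -0.75. None passed in the 5-group limma fit, where the smallest adjusted p was 0.164 (Alox12b) and 13 had an unadjusted p under 0.05. The list's level lay between -0.61 and -0.34 on high-dose STW5 arrays and between 0.03 and 0.36 on omeprazole arrays, and its part in the other differences was not tested. Krt13 stood at 6.81, 7.26, 7.19 and 6.54 on high-dose STW5 arrays, against 7.94, 7.74, 7.86 and 7.83 on omeprazole arrays (-0.89 ± 0.17, 8-array adjusted p = 0.0209). Krt4, its partner in the suprabasal layers, stood at 6.86, 7.09, 6.77 and 6.67, against 7.68, 7.80, 7.74 and 7.70 with omeprazole (-0.89 ± 0.12, 8-array adjusted p = 0.00768). The lipoxygenases Alox12b and Aloxe3, which make the lipids of the cornified barrier, differed by -1.87 ± 0.41 (8-array adjusted p = 0.0289) and -1.12 ± 0.19 (8-array adjusted p = 0.015). Alox12b and Alox12e lay on opposite sides, with Alox12e higher.

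Tgm1, the transglutaminase of the cornified envelope, differed by -0.85 (8-array adjusted p = 0.024), Loricrin by -0.75 (8-array adjusted p = 0.036) and Spink5, an inhibitor of the proteases that shed surface cells, by -1.20 (8-array adjusted p = 0.007). Sprr1a (-0.16 ± 0.21), Cnfn (-0.21 ± 0.25) and Asprv1 (-0.09 ± 0.27) overlapped. Of 15 basal keratinocyte genes 1 was lower in the 8-array fit, 13 had a difference below 0, and the median was -0.49. At an unadjusted p under 0.05, 6 of them were lower and 0 higher in that fit, a count not taken over all genes. In the 5-group fit 2 were lower and 0 higher at that threshold. Of 17 genes of wound-edge keratinocytes 1 was higher and 1 lower in the 8-array fit, with a median of -0.04.

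Of 25 measured genes of tight junctions and desmosomes, 11 were lower and 0 higher in the 8-array fit, 16 lay lower without overlap, and the median was -0.66. Ppl and Evpl stand in this list and the squamous one. Cldn23, a claudin of the junction strands, stood at -1.10, -1.42, -1.65 and -1.80 with high-dose STW5, against -0.53, -0.26, -0.29 and -0.38 with omeprazole (-1.13 ± 0.17, 8-array adjusted p = 0.00969). The desmosomal plakophilin Pkp3 differed by -1.16 ± 0.22 (8-array adjusted p = 0.0195). Occludin (Ocln) differed by -0.17, with a 95% interval of -0.71 to 0.36, and Cldn4 by -0.45 (-1.03 to 0.13).

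**Figure D5:**
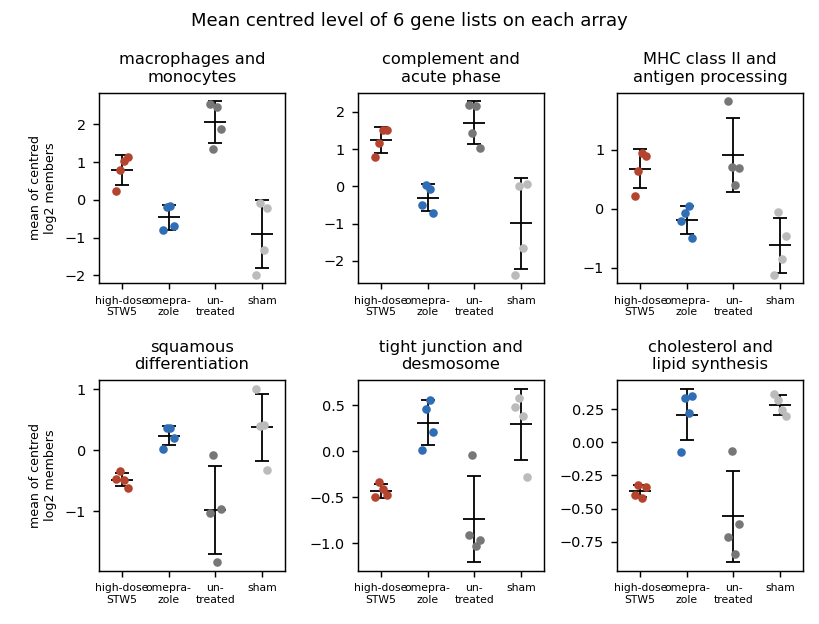
Mean of the centred log2 levels of the measured members of 6 gene lists on each array of the 4 groups, with the mean and SD of 4 arrays. High-dose STW5 points lie above all omeprazole points for the macrophage, complement and MHC class II lists and below them for the squamous, junction and cholesterol lists.

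The 4 called lower genes were Prdm1, Sgo2, Helt-ps1 and LOC689826. Prdm1 encodes a transcriptional repressor that marks the last steps of several lineages, cornifying keratinocytes and plasma cells among them. It stood at -1.11, -1.11, -1.11 and -1.52 on high-dose STW5 arrays, against -0.01, 0.03, -0.10 and 0.09 on omeprazole arrays (-1.22 ± 0.24, adjusted p = 0.0443). Untreated rats averaged -1.26 ± 0.38 and sham rats 0.06 ± 0.47. Its adjusted p was 0.0775 to 0.24 with any 1 array left out. Sgo2, which protects the cohesion of chromosomes, was near background at -5.54, -5.53, -5.68 and -6.24, against -4.74, -4.64, -4.69 and -4.85 with omeprazole (-1.02 ± 0.20, adjusted p = 0.0443, and 0.0682 to 0.231 with 1 array left out). Of 29 cell cycle genes 0 passed in either limma fit or lay without overlap, and their median difference was -0.24. At an unadjusted p under 0.05, 5 were lower in each fit, against 1467 of all 13615 genes in the 5-group fit.

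Several genes of cholesterol and fatty acid synthesis were lower with high-dose STW5 in the 8-array fit. Of 24 measured, 8 were lower and 1 higher in the 8-array fit, 13 lay lower without overlap, and the median was -0.57. Elovl4, which makes the very long fatty acids of barrier lipids, stood at -2.47, -2.44, -2.66 and -3.07 with high-dose STW5, against -1.59, -1.39, -1.28 and -1.51 with omeprazole (-1.22 ± 0.16, 8-array adjusted p = 0.00761). The desaturase Scd2 differed by -0.98 ± 0.19 (8-array adjusted p = 0.0209) and Dhcr7, which catalyses the last step of cholesterol synthesis, by -0.77 ± 0.16 (8-array adjusted p = 0.0248). The 1 higher member, Stard4, gave 0.67 with its brighter probe and 0.00 with the other. Angptl4, an inhibitor of lipoprotein lipase from the list of fatty acid metabolism, was higher by 2.11 ± 0.39 (8-array adjusted p = 0.0178). Of that list's 24 members 3 were higher and 1 lower in the 8-array fit.

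Some genes of foreign compound metabolism were lower with high-dose STW5 in the 8-array fit. Of 30 measured xenobiotic genes 5 were lower and 0 higher in it, none passed in the 5-group limma fit (6 were lower and 1 higher there at an unadjusted p under 0.05), and 9 lay lower and 1 higher without overlap. Gstm2, a glutathione transferase, differed by -0.95 ± 0.19 (8-array adjusted p = 0.0216). Of 10 aryl hydrocarbon receptor genes 2 were lower in the 8-array fit and 0 in the 5-group limma fit, where 2 were lower at an unadjusted p under 0.05. The median difference of these 10 was -0.18. Nqo1, a quinone reductase, stood at 0.00, 0.42, -0.06 and -0.32 with high-dose STW5, against 1.16, 0.73, 1.05 and 1.13 with omeprazole (-1.01 ± 0.18, 8-array adjusted p = 0.0167). Cyp1b1, a cytochrome P450 of this pathway, differed by -0.86 ± 0.16 (8-array adjusted p = 0.0178).

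Cyp1a1, the classical target of the aryl hydrocarbon receptor, stood at -3.61, -4.62, -4.37 and -4.09 with high-dose STW5, against -3.89, -2.17, -2.22 and -1.53 with omeprazole. Omeprazole array 1 lay among the high-dose STW5 arrays, and the other 3 were higher. The difference of -1.72 had a 95% interval of -3.48 to 0.04. In untreated rats, on another slide, 0 of 4 arrays were well above background for Cyp1a1.

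Of 21 measured genes of acid and bicarbonate handling, 1 was higher and 1 lower in the 8-array fit, and the median was -0.02. These counts are near the shares over all genes in that fit, 4.72% higher and 3.97% lower. Slc26a9, a chloride and bicarbonate transporter of epithelia, differed by -0.91 (8-array adjusted p = 0.011) and the proton-sensing receptor Gpr4 by 0.89 (8-array adjusted p = 0.042). The non-gastric proton pump Atp12a differed by -0.35 (95% interval -1.25 to 0.56) and the gastric one, Atp4a, by -0.05 ± 0.33. Of 27 subunits of oxidative phosphorylation 0 passed in either limma fit or lay without overlap, and 3 were lower at an unadjusted p under 0.05 in each fit. Over all 13615 genes 1467 were lower at that threshold in the 5-group fit, a similar share. Among 20 genes of the clock and of the glucocorticoid response 2 were higher and 1 lower in the 8-array fit, with Per2 at 0.95 (8-array adjusted p = 0.00969) and Per1 at 0.03 (95% interval -0.47 to 0.53). Hmox1, haem oxygenase 1, differed by 0.09 (-0.85 to 1.03). For 8559 genes (62.9%) the 95% interval of the difference lay within -1 to 1.

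Without omeprazole array 2 the list medians were 1.42 for macrophages, 1.34 for complement, 0.84 for MHC class II, -0.73 for squamous differentiation, -0.61 for junctions and -0.51 for cholesterol and lipid synthesis, with the same sign as with all 8 arrays. The median of the fatty acid list, -0.01 with all 8 arrays, was 0.10 without that array.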

How the data were processed

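RNA of rat oesophagus was measured on 20 arrays, in 5 groups of 4 arrays. Per the file headers, the authors scanned one-colour arrays with Agilent Feature Extraction 10.7.3.1, and the deposited processed signal is an intensity after background subtraction and detrending, not scaled between arrays. A value table the authors deposited gives, as a ratio, the signal over the median of the array. It served as an alternative. Genome build and probe design were not given in the sources used here.

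The log2 intensity minus the 75th percentile of the array was averaged over spots of a probe without outlier spots. Probes entered the test when 50% or more of their spots passed Agilent's flag for a signal well above background on 4 or more arrays (19915 of 30367 probes), and each gene took its probe with the highest mean, giving 13615 genes. Of the probes, 18377 were named by accession, 2484 by symbol and 529 by synonym through RefSeq GRCr8, 1834 by the array file alone, and 7143 not at all. Low-dose STW5 replicates 1 and 2 differed between arrays 1.13 times as much as between repeat spots, under the limit of 1.5, and were counted as 1 sample.

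All 5 groups (19 samples) were fitted with lmFit and eBayes in limma 3.58.1 (R 4.3.3), on 14 residual degrees of freedom (prior 2.78), at a Benjamini-Hochberg threshold of 0.05. The median standard error of a difference was 0.245, and 0.182 in the fit of the 8 arrays. Printed values are log2 differences ± SE from the fit named, or from the 5-group fit where none is named. Where a group was not well above background, the fold is a lower bound for the signal floor described above. The number of arrays limits the precision. The p-values of the 5-group fit set a difference against the spread between samples pooled over all 5 groups. Those of the 8-array fit use the spread within the 2 groups compared. Neither covers the column of the slide, which cannot be told apart from drug. In simulated data the 5-group fit recovered 54% of genes changed by log2 1 and 92% of those changed by 2, and the 8-array fit 33% and 80%, with 11 and 12 false calls. A simulated set without change gave 0 calls. The simulated noise was independent between genes, with the same SD for a gene in all 5 groups. On the real arrays the 2 groups compared here varied less than the others. The simulated rates therefore do not rank the 2 fits on the real arrays or give their error rates.

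Named genes were the 12 largest called differences in each direction with an established symbol, filled up by the smallest p, up to 4 members with the smallest p of each described list, and a panel of 23 genes. The remaining called genes and further list members were chosen after their values were seen. A list was described if it held a call or at least 20% of its members lay without overlap in 1 direction, a rule set after the values were seen. Members and lists were chosen with earlier results of these data known. Replicate numbers did not pair the arrays: deviations of same-numbered arrays correlated at 0.07, -0.32, 0.15 and -0.20. Alternatives were other scalings, filters, sample sets and weights, a replicate block and each of the 8 arrays left out.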

Additional observations from a re-analysis of the deposited data

Results flagged for a closer look

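Of 258 groups of 4 arrays checked for 129 named genes, 13 held 1 array far from the other 3. Chance gives about 1 in 20 groups, which is near the share found here. On high-dose STW5 array 4, Prdm1 stood at -1.52 (nearest other array -1.11), Aloxe3 at -0.77 (nearest -0.07) and Stard4 at -0.54 (nearest -0.92). On high-dose STW5 array 2, 3 muscle genes stood low: Chrng at -0.29 (nearest 0.38), Chrna1 at 0.0224 (nearest 0.52) and Myod1 at 0.34 (nearest 0.47). On high-dose STW5 array 1, C3 stood at -0.45 (nearest 1.72). On omeprazole array 4, Chrng stood at -4.48 (nearest -2.27), LOC689826 at -1.28 (nearest -0.53), Actn3 at 5.85 (nearest 5.30) and Cd163 at -0.31 (nearest -0.52). On omeprazole array 1, Slc4a3 stood at -0.77 (nearest -1.72). Il6 stood at -7.62 there (nearest -6.73), where no omeprazole array was well above background.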

How the results depend on the processing

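The 5-group fit called 26 genes higher and 4 lower. Higher genes numbered 40 with quantile normalization, 40 with median centring, 11 with the stricter filter, 643 with the 8 arrays alone, 151 with a replicate block on the 8 arrays, 1068 with array weights, 787 by the value table's titles and 47 with its columns matched to the scanner files. Lower genes numbered 7 with normexp and quantile, 0 with the stricter filter, 540 with the 8 arrays, 7 with 20 arrays, 65 with the replicate block, 1193 with array weights, 7 with a signal floor and 234 by the value table's titles. At an unadjusted p under 0.05 the 5-group limma fit had 972 higher and 1467 lower genes. The share of higher genes among those called was 86.7%, against 54.4% with the 8 arrays, 47.2% with array weights, 69.9% with the block, 77.1% by the value table's titles and 100% with the stricter filter. With 1 array left out, 5 to 22 genes were higher and 0 to 1 lower, on fewer samples. Among named genes called in the main fit or by the value table's titles, signs turned by those titles for Retnlg (-0.68), Ccl11 (-0.0263), Clec9a (-0.63), Prdm1 (0.79), Clec16a (0.67), Hpgds (-1.38), Tcf21 (-1.71), Cyp2s1 (0.87), Krt1 (2.09), Helt-ps1 (0.63), LOC689826 (0.42), Lypd1 (-0.43), Rarres1 (-0.0318), Cnfn (1.08) and Slc26a9 (1.03). Turned signs of genes called in neither are not listed. The cause was not tested. The median of all genes was -0.13 with no filter and 0.26 by those titles. Of the 30 called genes, 30 kept their call with the 8 arrays, 25 with the block, 5 to 16 with 1 array left out and 3 by the value table's titles. The stricter filter asked for a signal well above background on all 8 arrays. Of the called genes 17 passed it, and 11 of these kept their call. Signal near background limits genes such as Sgo2, Il6 and Htr2a, and Alox12e, Ccr3, Tfec and Bdkrb1 on omeprazole arrays.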

Other observations

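Called genes outside the lists were also higher with high-dose STW5. Prokr2, a receptor of prokineticins, was at least 5.16-fold higher (adjusted p = 0.0145). The serine protease Htra4 differed by 2.59 ± 0.42 (adjusted p = 0.0161), with 1 of 4 omeprazole arrays well above background. The anion exchanger Slc4a3 differed by 2.17 ± 0.43 (adjusted p = 0.0443). Rarres1, a retinoid-responsive gene, differed by 1.78 ± 0.34 (adjusted p = 0.0403). With 1 array left out, Prokr2 kept its call in 5 of 8 fits, Htra4 in 3, Slc4a3 in 1 and Rarres1 in 1.

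Eicosanoid genes moved in both directions in the 8-array fit. Of 22 measured, 3 were higher and 2 lower. The secreted phospholipase Pla2g2a differed by 2.67 (8-array adjusted p = 0.00255) and Alox5ap, the helper protein of 5-lipoxygenase, by 0.97 (8-array adjusted p = 0.0222). The platelet-type lipoxygenase Alox12 differed by -1.04 (8-array adjusted p = 0.0208) and the prostaglandin D synthase Ptgds by -1.04 (8-array adjusted p = 0.0195).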
